A study of Mus musculus with 30 samples.

Results

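B16F10 cells, a mouse melanoma line, were cultured for 24 h with IFNγ at 100 ng/mL or with vehicle, and their polyadenylated RNA was sequenced in 3 libraries for each condition. The comparison of these 6 libraries, out of 24 bulk libraries and 30 samples in the study, covers 18584 of 49315 counted genes, namely those with at least 10 reads in total over the 12 B16F10 libraries. The other B16F10 libraries came from cells given IFNβ at 1000 U/mL or a STING agonist at 225 μg/mL, and the same 4 conditions were applied to 6694c2 cells, a mouse pancreatic ductal adenocarcinoma (PDAC) line. The labels give the cells' origin as C57BL/6 and name no altered gene or transgene in any of these groups. B16F10 is a single established line, the vehicle is not described in the sources used here, and nothing states that the 3 libraries of a group came from separate cultures, so p-values measure the spread between these libraries, which may be technical.

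IFNγ is the type II interferon, made mainly by T cells and NK cells. Its receptor, the pair IFNGR1 and IFNGR2, signals through the kinases JAK1 and JAK2 to GAS elements in promoters. A first set of genes is switched on there, among them the transcription factor IRF1, which in turn acts on ISRE elements. In tumor cells the cytokine is known for raising the presentation of peptides on MHC class I, for inducing the ligand PD-L1 and the chemokines that attract T cells, and for slowing growth.

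The vehicle libraries held 19688783 to 24019834 reads on genes and the IFNγ libraries 20220592 to 26399495. Values are CPM, read counts scaled to a common library size with TMM factors, in the order of replicates 1, 2 and 3. Groups were compared with the quasi-likelihood test of edgeR, the p-values were adjusted by the Benjamini-Hochberg method over all genes tested, and a gene was called at an adjusted p under 0.05. The cells carried the melanocyte program: the 12 melanocyte markers summed to 21107 to 21284 CPM with vehicle and 17351 to 17767 CPM with IFNγ. The 12 T and NK cell markers summed to at most 3.18 CPM in any of the 6 libraries, and Cd3e, Cd4, Cd8a, Klrb1c and Ncr1 had no read in either group. The 12 macrophage and dendritic cell markers summed to at most 17.2 CPM, with no read of C1qb or C1qc in either group, the 8 fibroblast markers to at most 16.5 CPM and the 6 endothelial markers to at most 1.81 CPM. The 12 epithelial markers summed to 15.4 to 21.8 CPM with vehicle and 18.2 to 42.3 CPM with IFNγ, where replicates 2 and 3 were the high ones.

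IFNγ raised 2507 genes, 13.5% of those tested, and lowered 2244, or 12.1%. Of these, 675 (3.63%) rose over 2-fold and 142 (0.764%) fell over 2-fold, so that most of the called genes, 82.8%, moved by less. Of the 675 genes, 318 were under 1 CPM with vehicle, 170 of them also with IFNγ, and 656 had no overlap between the 2 groups of libraries. Over all genes tested, with no other condition, every IFNγ library was above every vehicle library for 20% and below for 18.9%. The large changes were rises, as the plot of fold change against mean expression shows: 170 genes rose over 16-fold against 12 that fell so far, and 49 rose over 64-fold against 0. The 675 genes took 0.899% to 0.9596% of the reads in the vehicle libraries and 6.24% to 6.54% in the IFNγ libraries. The balance of rises and falls depended on the scaling, since with upper-quartile factors 1965 genes were higher and 3237 lower, or 37.8% higher among the calls against 52.8%, with the median over all genes tested moved from 0.00571 to -0.0597 on the log2 scale.

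**Figure D1:**
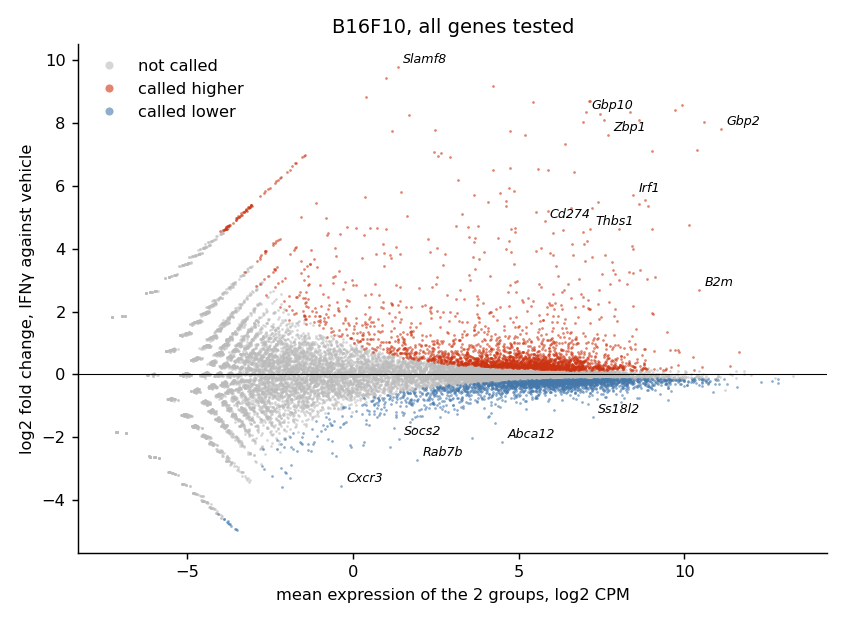
Log2 fold change of IFNγ against vehicle (vertical) against the mean expression of the 2 groups in log2 CPM (horizontal), 1 point per gene tested with a read in these groups, red where called higher, blue where called lower and gray where not called. The rises reach 9.77 (Slamf8), and among the labelled genes the largest fall is -3.54 (Cxcr3).

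The guanylate-binding proteins (GBPs) and immunity-related GTPases (IRGs), interferon-inducible enzymes that attack the vacuoles of intracellular pathogens, had the highest medians of the gene lists examined. Of the 11 GBP genes tested 10 were called higher and 0 lower, with a median log2 fold change of 7.82, and of the 15 IRG genes 13 were higher and 0 lower, with a median of 7.13, beside 0.0057 over all genes tested. Gbp2 stood at 9.91, 29.4 and 18.3 CPM with vehicle and at 4534, 4269 and 4384 CPM with IFNγ. It drew the most reads of these genes, a rise of 226-fold (log2 fold change 7.82, standard error 0.173, edgeR adjusted p = 1.62e-31). Gbp4 went from 0.719, 2.75 and 2.34 CPM to 624, 716 and 602 CPM (log2 fold change 8.33, edgeR adjusted p = 3.47e-36), and Gbp3 from 15.05, 19.5 and 19.3 CPM to 788, 780.3 and 758 CPM (log2 fold change 5.43, edgeR adjusted p = 4.08e-38). For both, all IFNγ libraries lay far above all vehicle libraries. Gbp10, at 0.0514, 1.42 and 0.837 CPM with vehicle and 249.5, 305 and 233 CPM with IFNγ, and Gbp6, at 1.32 ± 1.02 and 381 ± 6.78 CPM (SD, n = 3), had log2 fold changes of 8.33 and 8.104. Gbp5, Gbp7 and Gbp9 rose by 6.497, 4.61 and 6.57 on the log2 scale. Without vehicle replicate 2 the values of Gbp10 and Gbp6 were 9.07 and 8.72, and without vehicle replicate 3 that of Gbp9 was 7.32. Gbp2b was the member not called, at 0.107 ± 0.09302 and 0.103 ± 0.0472 CPM (SD, n = 3).

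Among the IRGs, Igtp (also known as Irgm3) stood at 11.6, 21.8 and 22.2 CPM with vehicle and 2647, 2676 and 2566 CPM with IFNγ, a log2 fold change of 7.13 (edgeR adjusted p = 3.47e-36). Irgm1, a regulatory member of the family, already had 72.1, 86.4 and 79.3 CPM with vehicle and reached 2180.1, 2144 and 2153 CPM (log2 fold change 4.77, edgeR adjusted p = 4.08e-38). Irgm2 went from 15.5, 19.4 and 20.4 CPM to 855, 935 and 832 CPM (log2 fold change 5.56, edgeR adjusted p = 2.898e-38). The groups did not overlap for any of these 3 regulatory members. Iigp1, an effector member that acts on vacuole membranes, rose from 11.3 ± 7.99 to 3039.5 ± 72.9 CPM (means ± SD, n = 3 each, log2 fold change 8.03). Tgtp1 and Tgtp2, a near-identical pair that can share reads, rose from 4.93 ± 3.41 and 4.81 ± 3.53 CPM to 1929 ± 29.8 and 1684 ± 36.7 CPM (means ± SD, n = 3 each). Ifi47 (Irgd) stood at 4.78, 8.43 and 9.205 CPM and at 1062, 1020.0 and 1032 CPM, and its log2 fold change was 7.09 (edgeR adjusted p = 4.83e-38). Less studied members moved as far: Gm12250 had a log2 fold change of 8.08, F830016B08Rik of 8.65 and Gm4951 of 8.02, and Gm4841 and Gm12185, which resemble them but are not on the list, of 8.28 and 8.71. Without vehicle replicate 2 the values of Gm12250 and Gm4951 were 8.7003 and 8.65. Irgq, at 42.2 ± 1.72 and 45.8 ± 3.87 CPM (means ± SD, n = 3 each), and Irgc1, at 0.0841 ± 0.1105 and 0 ± 0 CPM, were not called. Together the GBP and IRG genes tested held 0.01797% to 0.0284% of the reads with vehicle and 2.03% to 2.099% with IFNγ.

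A few genes had no read at all in the vehicle libraries. Gbp8 reached 3.78, 4.899 and 3.36 CPM with IFNγ, at least 89.1-fold higher than a floor of 3 reads over the vehicle group. Slamf8, a cell surface receptor of the SLAM family, reached 3.86, 6.11 and 5.29 CPM, at least 113-fold above that floor, and the predicted gene Gm43302 reached 2.65, 2.98 and 2.27 CPM, at least 58.5-fold above it. Their fitted log2 fold changes of 9.43, 9.77 and 8.83 depend on the prior count and are no bounds. Gbp11 had 4 reads over the vehicle libraries and 2493 over the IFNγ libraries (log2 fold change 9.16, edgeR adjusted p = 1.68e-28). Apol6, an apolipoprotein L gene, stood at 0, 0.8601 and 1.004 CPM with vehicle and at 269, 305 and 251 CPM with IFNγ (log2 fold change 8.69, edgeR adjusted p = 4.895e-34), so that replicate 1 of the vehicle group had none. The file counts Olfr56, annotated as an odorant receptor gene, at 1.02 ± 0.239 and 168 ± 4.86 CPM (SD, n = 3, log2 fold change 7.33), but its annotated span covers Ifi47, Tgtp1, Tgtp2 and Gm12185, and reads of these genes cannot be told apart from its own where exons overlap. Igtp and Irgm2 also overlap on the same strand, as do Gbp4 and Gbp8. Irf1 overlaps an antisense gene, Gm17334, and the strand setting of the counting is not given in the sources used here.

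**Figure D2:**
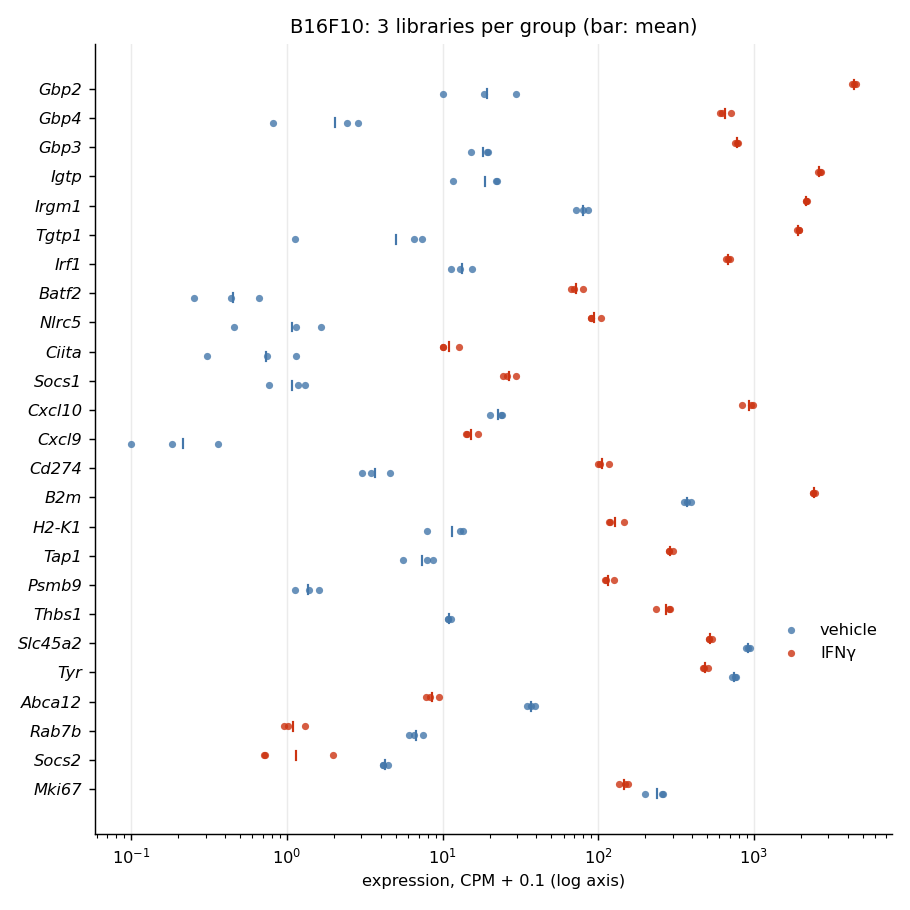
CPM + 0.1 of 25 genes in each library on a log axis, blue for vehicle and red for IFNγ, with 1 point per library (3 per group) and a bar at the mean. The groups do not overlap for any of the 25 genes. Gbp2 lies at 19.2 ± 9.78 CPM with vehicle and 4396 ± 133 CPM with IFNγ (SD, n = 3), and vehicle replicate 1 is the leftmost vehicle point for Gbp2, Gbp4, Igtp and Tgtp1.

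Neighbouring genes rose together at the loci of these families. Runs of at least 4 consecutive tested genes, all called higher over 2-fold, occurred 8 times and held 53 of the 675 genes. The run with the most genes lay at chr11:48861968-49135387 (GRCm38) with 13 genes, Irgm1, Tgtp1, Tgtp2, Ifi47 and Gm12185 among them. It also holds Olfr56, whose span covers Tgtp1, Tgtp2, Ifi47 and Gm12185, so members of the run can share reads. Another, at chr5:105014150-105406970, held 8 genes including Gbp4, Gbp6, Gbp8, Gbp10 and Gbp11. There Gbp4 overlaps Gbp8, and Gm43302, also in the run, overlaps Gbp6 and Gbp10, so these can share reads as well. A run at chr1:173673675-174031810 held 8 genes of the p200 family of DNA sensors, with log2 fold changes from 3.83 to 6.72. At chr17:34153072-34216321, inside the MHC, H2-DMb1, Psmb9, Tap1, Psmb8, Tap2 and Gm15821 rose side by side. At chr5:92321347-92414628 the chemokine genes Cxcl9, Cxcl10 and Cxcl11 rose with Art3, an enzyme gene that overlaps Cxcl10 and whose reads can include those of its neighbour. No such run was found among genes called lower.

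GAS and ISRE are the 2 elements that IFNγ signalling is known to use. Each promoter printed below holds a match to a GAS, to an ISRE core or to both. Promoters without a match are not printed, so those below do not stand for all genes that rose. Windows from 250 bases before to 50 bases after the start were taken from RefSeq (GRCm38.p6) for 12179 of the 18584 genes tested, and searched on both strands for a GAS, TTCNNNGAA, and for an ISRE core, GAAANNGAAA. The windows below are 60 bases long and end before the start, with the matched elements in capitals, and each is written 5′ to 3′ on the strand of its gene.
Irf1, chr11:53769898-53769957, plus strand: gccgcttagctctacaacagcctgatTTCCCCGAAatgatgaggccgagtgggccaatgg
Igtp, chr11:58199491-58199550, plus strand: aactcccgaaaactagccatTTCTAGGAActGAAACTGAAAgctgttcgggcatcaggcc
Irgm2, chr11:58214882-58214941, plus strand: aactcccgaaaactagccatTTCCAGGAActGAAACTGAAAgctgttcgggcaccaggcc
Tgtp1, chr11:48992295-48992354, minus strand: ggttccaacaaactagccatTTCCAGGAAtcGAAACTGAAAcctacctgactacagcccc
Tgtp2, chr11:49064254-49064313, minus strand: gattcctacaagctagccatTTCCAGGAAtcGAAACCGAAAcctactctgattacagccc
Gm12185, chr11:48927229-48927288, minus strand: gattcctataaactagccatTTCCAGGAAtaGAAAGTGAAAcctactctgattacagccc
Irgm1, chr11:48871421-48871480, minus strand: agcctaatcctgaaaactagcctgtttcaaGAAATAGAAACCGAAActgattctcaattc
Gbp2, chr3:142620579-142620638, plus strand: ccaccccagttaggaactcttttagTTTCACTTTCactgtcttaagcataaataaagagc
Gbp3, chr3:142559977-142560036, plus strand: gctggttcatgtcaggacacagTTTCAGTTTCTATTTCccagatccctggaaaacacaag
Cxcl10, chr5:92349068-92349127, minus strand: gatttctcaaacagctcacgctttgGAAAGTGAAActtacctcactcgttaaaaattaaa
B2m, chr2:122147523-122147582, plus strand: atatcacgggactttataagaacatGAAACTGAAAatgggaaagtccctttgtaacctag
Socs1, chr16:10785582-10785641, minus strand: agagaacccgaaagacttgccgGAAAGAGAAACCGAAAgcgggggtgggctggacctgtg
Isg15, chr4:156200856-156200915, minus strand: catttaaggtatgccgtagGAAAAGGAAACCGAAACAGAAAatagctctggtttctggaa

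Irf1 has a GAS starting 90 bases before its start, and 5 of the other windows share a tighter arrangement, in which a GAS is followed, 2 bases later, by an ISRE core. This arrangement, chosen after these sequences were seen, occurs in 5 of the 32851 promoters of the whole table, and the 5 belong to Igtp, Irgm2, Tgtp1, Tgtp2 and Gm12185, all on chromosome 11. The first 4 are on the IRG list and Gm12185 is not, and neighbours and members of 1 family are not independent examples. Irgm1, Gbp3, Socs1 and Isg15 have overlapping ISRE cores instead, and Gbp2, Cxcl10 and B2m 1 ISRE core each. Of all 12179 genes with a promoter, 8.37% held a GAS and 3.84% an ISRE core in at least 1 of their promoters. Among the 455 of these genes called higher over 2-fold the shares were 15.8% (95% Wilson interval 12.8% to 19.5%) and 21.1% (17.6% to 25.1%). Among the 51 genes called higher over 32-fold they were 25.5% and 41.2%, and among the 90 genes called lower over 2-fold 2.22% for each element. Of 157 genes with a promoter that were over 2-fold higher with IFNγ than with IFNβ, 21.02% held a GAS and 21.02% an ISRE core. Of the 107 over 2-fold lower, 10.3% and 18.7% did. Promoters of 1 gene family share sequence, a match is not a measured binding site, and elements outside these windows were not searched.

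Within the signalling pathway, 10 of 14 receptor and JAK-STAT genes were called higher and 1 lower (median log2 fold change 0.55). That is 71.4% and 7.14%, beside 13.5% and 12.1% of all genes tested. Stat2, which acts in the response to type I interferon, went from 8.73 ± 1.37 to 121 ± 4.596 CPM (means ± SD, n = 3 each, log2 fold change 3.79, edgeR adjusted p = 2.22e-32). Stat3, which carries signals of IL-6 type cytokines, went from 90.7 ± 2.91 to 388 ± 14.2 CPM (log2 fold change 2.09, edgeR adjusted p = 2.33e-29). The kinases Jak1 and Jak2 rose by 0.81 and 1.04 on the log2 scale, and Irf9, a DNA-binding partner of STAT2, by 0.87. Of the receptor chains for IFNγ, Ifngr1, the ligand-binding chain, stood at 16.9, 15.96 and 17.1 CPM and 16.8, 17.1 and 16.3 CPM and was not called (log2 fold change 0.0065, edgeR adjusted p = 0.984), while Ifngr2, the second chain, was the gene called lower, from 73.6, 77.1 and 77.2 CPM to 55.2, 56.8 and 52.8 CPM (log2 fold change -0.47, edgeR adjusted p = 4.31e-07). Ifnar2, a chain of the type I interferon receptor, rose from 37.9 ± 1.402 to 68.8 ± 2.52 CPM (means ± SD, n = 3 each), and the other chain, Ifnar1, was not called (log2 fold change -0.042).

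Of 12 genes that restrain the pathway, 5 were called higher, 1 lower and 6 were not called (median log2 fold change 0.093). The shares called, 41.7% higher and 8.33% lower, stand beside 13.5% and 12.1% of all genes tested. Socs1, which inhibits JAK kinases, stood at 0.668, 1.08 and 1.21 CPM with vehicle and at 24.4, 29.4 and 25.6 CPM with IFNγ, and Socs3, an inhibitor of IL-6 family signalling, at 4.62, 5.55 and 3.85 CPM and 55.9, 52.1 and 53.1 CPM. For both genes the groups were separate, with log2 fold changes of 4.71 (edgeR adjusted p = 2.22e-24) and 3.52 (edgeR adjusted p = 2.37e-26). Usp18, which removes ISG15 from proteins and blocks the type I interferon receptor, rose from 54.1 ± 5.28 to 232 ± 2.21 CPM (means ± SD, n = 3 each). Socs2, an inhibitor of growth hormone signalling through STAT5, was the member that fell, from 4.06, 4.04 and 4.35 CPM to 0.624, 1.87 and 0.614 CPM (log2 fold change -2.05, edgeR adjusted p = 2.13e-08), with replicate 2 the highest of the IFNγ libraries and still below every vehicle library. Without that library the log2 fold change was -2.73. Cish, another target of STAT5, was at 3.19 ± 0.142 and 2.196 ± 0.289 CPM and was not called (edgeR adjusted p = 0.0618), although it was with upper-quartile factors (adjusted p = 0.0288, edgeR) and with only the groups compared (adjusted p = 0.0496, edgeR).

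Among the 23 transcription factors and coactivators tested, 11 rose (47.8%, beside 13.5% of all genes tested) and 2 fell (8.7%, beside 12.1%). Their median log2 fold change was 0.59. Irf1 stood at 11.2, 15.4 and 12.8 CPM with vehicle and 684, 701 and 663 CPM with IFNγ (log2 fold change 5.69, standard error 0.0803, edgeR adjusted p = 8.14e-38). Batf2, a basic leucine zipper factor that partners IRF1, went from 0.154, 0.559 and 0.335 CPM to 66.4, 80.2 and 69.2 CPM (log2 fold change 7.62, edgeR adjusted p = 1.48e-31). These 2 were separated by more than an order of magnitude from every vehicle library. The coactivator of MHC class I genes, Nlrc5, went from 0.359, 1.55 and 1.05 CPM to 89.3, 105 and 89.4 CPM (log2 fold change 6.53, edgeR adjusted p = 8.102e-31), and that of class II genes, Ciita, from 0.205, 0.645 and 1.05 CPM to 9.94, 12.6 and 10.02 CPM (log2 fold change 4.03, edgeR adjusted p = 1.95e-15). Irf2, Irf5, Irf4, Bcl3, Jun, Atf3 and Cebpb were called higher as well, with log2 fold changes from 0.59 (Cebpb) to 2.77 (Irf5). The call of Irf4 was just inside the threshold (edgeR adjusted p = 0.0494) and rests on few reads, at 0.116 CPM with vehicle and 0.405 CPM with IFNγ on average. Irf7 and Irf8, which respond to interferon in many immune cells, were low and not called, at 0.981 ± 0.383 and 1.59 ± 0.849 CPM for Irf7 and 1.28 ± 0.618 and 1.86 ± 0.229 CPM for Irf8 (means ± SD, n = 3 each). Without IFNγ replicate 3 Irf7 was called higher (log2 fold change 1.03, edgeR adjusted p = 0.0381). Cebpd was called lower by 0.98 on the log2 scale, and Irf3 by 0.23, a call that was lost without vehicle replicate 1 (log2 fold change -0.19), IFNγ replicate 1 (-0.202) or IFNγ replicate 2 (-0.23).

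Genes for nearly every step of the MHC class I pathway, from peptide to cell surface, rose. Of the class I chain genes 10 of 17 were called higher and 0 lower (median log2 fold change 2.55). B2m, the light chain shared by class I molecules, stood at 353, 371 and 391 CPM with vehicle and 2401, 2378 and 2469 CPM with IFNγ (log2 fold change 2.6995, standard error 0.0496, edgeR adjusted p = 3.57e-34). The heavy chains H2-K1 and H2-D1 stood at 7.81, 12.9 and 13.5 CPM and 125, 119 and 131 CPM with vehicle. With IFNγ they reached 118, 146 and 117 CPM and 552, 597 and 549 CPM, log2 fold changes of 3.46 (edgeR adjusted p = 2.12e-25) and 2.18. H2-K1 was thus the lower of the pair in reads at both conditions and the one with the larger rise. H2-T23, which encodes Qa-1, the ligand of the NK cell receptor NKG2A, went from 4.26, 4.602 and 5.27 CPM to 178, 215 and 169 CPM (log2 fold change 5.305, edgeR adjusted p = 7.51e-32). H2-T22 and H2-Q4 rose by 3.56 and 4.34 on the log2 scale. H2-Q6, H2-Q7, H2-Q2, H2-Q10 and H2-T3 were each under 1 CPM on average in both groups and were not called. Class I genes are similar in sequence, so reads can be split among them.

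The genes that supply and load peptides rose together, apart from the general chaperones. Tap1 and Tap2, the subunits of the peptide transporter, stood at 5.44, 8.601 and 7.78 CPM and 1.64, 2.67 and 2.43 CPM with vehicle, and at 283, 302 and 286 CPM and 187, 222 and 189 CPM with IFNγ (log2 fold changes 5.301 and 6.45, edgeR adjusted p = 7.75e-35 for Tap2). Tapasin (Tapbp), its homolog Tapbpl and the trimming peptidase Erap1 had log2 fold changes of 3.99, 4.53 and 3.74. Calr and Hspa5, chaperones of the endoplasmic reticulum, were called lower by 0.21 and 0.16, and Canx and Pdia3 were not called. All 5 immunoproteasome genes rose (median log2 fold change 3.48). Psmb9 went from 1.03, 1.29 and 1.51 CPM to 112, 126 and 110.3 CPM and Psmb8 from 1.13, 0.989 and 1.09 CPM to 10.8, 15.2 and 10.1 CPM, while Psmb10 went from 37.9 ± 1.43 to 639 ± 11.97 CPM (means ± SD, n = 3 each). These 3 encode the catalytic subunits that replace the constitutive ones, and their log2 fold changes were 6.49, 3.48 and 4.08. Psme1 and Psme2, the proteasome activator subunits, rose by 2.87 and 3.25. The constitutive catalytic subunits Psmb5, Psmb6 and Psmb7 were not called (log2 fold changes 0.038, -0.019 and -0.105, the last called lower with upper-quartile factors). Of the 16 constitutive proteasome genes 8 were higher and 1 lower (50% and 6.25%, beside 13.5% and 12.1% of all genes tested). They had a median of 0.17, with Psma5 the member that rose most at 0.94.

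In the MHC class II pathway 9 of 15 genes were called higher and 1 lower (median log2 fold change 0.81), at levels well under those of class I. These are 60% and 6.67%, beside 13.5% and 12.1% of all genes tested. H2-DMa and H2-DMb1, the peptide exchange factor, went from 1.44, 2.06 and 2.43 CPM to 7.096, 9.55 and 7.56 CPM and from 1.64, 1.63 and 2.301 CPM to 6.94, 10.1 and 7.28 CPM (log2 fold changes 2.005 and 2.103, edgeR adjusted p = 3.87e-11 for H2-DMb1). The classical chains H2-Aa, H2-Ab1 and H2-Eb1 stood at 2.67, 9.29 and 9.41 CPM, 3.59, 7.698 and 8.201 CPM and 3.49, 9.81 and 9.83 CPM with vehicle. With IFNγ they stood at 12.2, 14.1 and 12.1 CPM, 9.24, 12.4 and 10.5 CPM and 11.7, 16.8 and 12.95 CPM. They were called higher with log2 fold changes of 0.81, 0.69 and 0.81, and the invariant chain Cd74, at 10.4, 20.1 and 22.5 CPM and 34.4, 45.9 and 39.8 CPM, with 1.16 (edgeR adjusted p = 7.11e-07). Genes of B cells, which are not melanocyte genes, also had reads in these libraries. The 8 B cell markers, each with reads in both groups, summed to 13.8 to 29.3 CPM with vehicle and 34.1 to 45.2 CPM with IFNγ. Of these, 3 were called higher, or 37.5% beside 13.5% of all genes tested. Ighm, the immunoglobulin heavy chain of IgM, stood at 6.57, 9.12 and 8.16 CPM and 12.6, 18.3 and 11.01 CPM (log2 fold change 0.7997, edgeR adjusted p = 2.40e-04), and Igkc and Cd79a had log2 fold changes of 1.23 and 0.82. Vehicle replicate 1 was the lowest library for the sum of these markers, and for Cd74. Without vehicle replicate 1 the 3 classical chains were not called, with log2 fold changes of 0.44, 0.41 and 0.48, nor were they by DESeq2 (adjusted p = 0.231, 0.0965 and 0.138). With a robust quasi-likelihood fit the 3 chains were not called either (edgeR adjusted p = 0.29, 0.158 and 0.209). Nor were Ighm (edgeR adjusted p = 0.0512) and Cd79a (edgeR adjusted p = 0.093) in that fit. Without IFNγ replicate 2 H2-Aa and H2-Eb1 were not called (0.74 and 0.65). Cd79a was not called without vehicle replicate 1 (0.59), vehicle replicate 3 (0.84) or IFNγ replicate 3 (0.57), and Cd74 was called without vehicle replicate 1 (0.898). B cells also express Cd74 and the classical chains, and the part of this signal in the class II values was not tested. Ifi30, a lysosomal thiol reductase that prepares antigens, was the member called lower (log2 fold change -0.38).

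Of 22 checkpoint and co-signalling ligands tested 6 were called higher (27.3%, beside 13.5% of all genes tested) and 1 lower (4.55%, beside 12.1%). Their median log2 fold change was 0.36. Cd274, which encodes PD-L1, stood at 2.93, 3.35 and 4.48 CPM with vehicle and 100.0, 116 and 102 CPM with IFNγ, a rise of 29.2-fold (log2 fold change 4.87, standard error 0.107, edgeR adjusted p = 1.396e-31). Tnfrsf14 (HVEM), a ligand of the inhibitory receptor BTLA, went from 0.205, 0.473 and 0.126 CPM to 3.59, 5.81 and 4.49 CPM (log2 fold change 4.06, edgeR adjusted p = 3.48e-11). Cd47, which restrains phagocytosis, went from 29.4, 28.2 and 27.6 CPM to 103, 105 and 101 CPM (log2 fold change 1.86, edgeR adjusted p = 3.46e-25). For all 3 the groups were separate. The log2 fold change of Tnfrsf14 without vehicle replicate 2 was 4.78. Icosl, the ligand of the costimulatory receptor ICOS, was at 0.159 ± 0.129 and 0.5698 ± 0.129 CPM (means ± SD, n = 3 each), a call at a log2 fold change of 1.86 that was 2.66 without vehicle replicate 1 and was lost without any of 4 other libraries. Lgals9 (galectin-9) and Cd276 (B7-H3) had log2 fold changes of 0.28 and 0.27, and the call of Cd276 was lost without IFNγ replicate 2 (0.17) and without any 1 vehicle library. The costimulatory genes Cd80 and Cd86 stayed under 1 CPM in both groups and were not called (log2 fold changes -1.02 and 0.024, standard errors 1.099 and 0.914), and Pdcd1lg2 (PD-L2) had 0 reads with vehicle and 3 with IFNγ. Raet1e, a ligand of the activating NK cell receptor NKG2D, was the member called lower, from 4.97 ± 0.399 to 3.67 ± 0.293 CPM (means ± SD, n = 3 each, log2 fold change -0.43, edgeR adjusted p = 0.0433). Its call was lost under 7 of 15 alternatives, by DESeq2 (adjusted p = 0.0603), with no filter on low counts (edgeR adjusted p = 0.0711), with the robust fit (edgeR adjusted p = 0.0521) and without IFNγ replicate 1 or 2 or vehicle replicate 1 or 3 (log2 fold changes -0.43, -0.38, -0.44 and -0.37).

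Of 13 chemokine genes tested, 4 were called higher (30.8%, beside 13.5% of all genes tested) and 0 lower (median log2 fold change 0.19). Of the 4, Cxcl9, Cxcl10 and Cxcl11 encode the ligands of CXCR3, a chemokine receptor of activated T cells. Cxcl10 stood at 19.98, 23.998 and 23.7 CPM with vehicle and 963, 839 and 984 CPM with IFNγ (log2 fold change 5.36, standard error 0.0751, edgeR adjusted p = 7.32e-38). Cxcl9 went from 0, 0.258 and 0.0837 CPM to 16.9, 13.99 and 14.2 CPM (log2 fold change 6.91, edgeR adjusted p = 1.55e-21). Cxcl11 went from 3 reads over the vehicle libraries to 75 over the IFNγ libraries, an average of 1.13 ± 0.127 CPM (SD, n = 3). The log2 fold change of Cxcl9 without vehicle replicate 2 was 8.18. In reads Cxcl10 was far above the other two. Ccl5 rose from 11.7, 11.2 and 10.5 CPM to 23.8, 25.4 and 22.8 CPM (log2 fold change 1.11, edgeR adjusted p = 1.97e-13).

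Cytokines and their receptors followed for 11 of 26 genes, with 1 lower (42.3% and 3.85%, beside 13.5% and 12.1% of all genes tested). Their median log2 fold change was 0.99. Il18bp, the soluble inhibitor of IL-18, went from 0.462, 1.25 and 0.418 CPM to 31.5, 34.8 and 31.5 CPM (log2 fold change 5.49, edgeR adjusted p = 2.65e-25). Without vehicle replicate 2 its log2 fold change was 6.197. Il18 itself went from 2.25 ± 0.462 to 7.89 ± 0.577 CPM (means ± SD, n = 3 each). Il12rb1, a receptor chain for IL-12 and IL-23, went from 2.26, 2.58 and 2.01 CPM to 49.8, 68.5 and 53.6 CPM (log2 fold change 4.64, edgeR adjusted p = 3.82e-25). Il15 and Il15ra, which together present IL-15 to NK and T cells, had log2 fold changes of 1.63 and 2.24, and Csf1, the growth factor of macrophages, went from 25.3 ± 2.35 to 108 ± 6.77 CPM (log2 fold change 2.095). Tnfsf10, the death ligand TRAIL, went from 0, 0.129 and 0.126 CPM to 5.15, 5.71 and 5.15 CPM. Il6, Tnf and Csf2 stayed under 1 CPM in both groups and were not called.

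Genes of the antiviral program, usually named for type I interferon, rose as a block: 36 of 41 were called higher and 1 lower, with a median log2 fold change of 2.38. Ifit3, which binds viral RNA with its relatives, went from 29.6, 41.5 and 50.04 CPM to 997, 1002 and 984 CPM (log2 fold change 4.61, edgeR adjusted p = 3.55e-33), although it can share reads with Ifit3b. Oasl2, an OAS-like protein, went from 4.62, 8.17 and 8.66 CPM to 319, 342 and 325 CPM (log2 fold change 5.497, edgeR adjusted p = 5.11e-35). Rsad2 (viperin) and Isg15, the ubiquitin-like modifier, already stood at 116 ± 11.9 and 52.4 ± 3.796 CPM with vehicle and reached 996 ± 47.3 and 381 ± 4.58 CPM (means ± SD, n = 3 each). Ube2l6, the enzyme that conjugates ISG15, went from 24.8, 26.8 and 27.7 CPM to 365, 356 and 371 CPM (log2 fold change 3.78, edgeR adjusted p = 3.47e-36). Mx2, a dynamin-like antiviral GTPase, had a log2 fold change of 2.38, and Xaf1, an inhibitor of the anti-apoptotic protein XIAP, of 2.44. Ifi27, a mitochondrial protein, was the member called lower, from 299, 293 and 310.4 CPM to 244, 237 and 231 CPM (log2 fold change -0.34, edgeR adjusted p = 2.903e-06).

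Of the PARP, TRIM, Schlafen and p200 genes 26 of 31 rose and 0 fell (median log2 fold change 2.88). Parp14, an ADP-ribosyltransferase, went from 17.9, 21.2 and 21.1 CPM to 489.7, 529.9 and 478 CPM (log2 fold change 4.63, edgeR adjusted p = 1.91e-35). Ifi204 and Ifi211, DNA-binding p200 proteins, stood at 2.52, 3.31 and 3.47 CPM and 1.75, 2.54 and 3.096 CPM with vehicle and at 115, 117 and 111 CPM and 90.1, 83.7 and 93.4 CPM with IFNγ (log2 fold changes 5.19 and 5.15). Slfn8 and Trim12a had log2 fold changes of 5.71 and 4.25, whereas Slfn2, Slfn3, Slfn5 and Aim2 were not called. Of 13 genes of cytosolic sensing, 8 were higher and 2 lower (61.5% and 15.4%, beside 13.5% and 12.1% of all genes tested). Their median log2 fold change was 0.61. Zbp1, a sensor of Z-form nucleic acids that triggers necroptosis, was among the genes with the smallest p-values, at 1.18, 2.37 and 2.64 CPM with vehicle and 411, 422 and 408 CPM with IFNγ (log2 fold change 7.61, standard error 0.101, edgeR adjusted p = 2.898e-38). Nod1, a receptor for bacterial peptidoglycan, went from 0.842 ± 0.336 to 51.8 ± 5.48 CPM (means ± SD, n = 3 each), and Tmem173, the gene of STING, from 30.9 ± 0.701 to 56.97 ± 1.83 CPM (log2 fold change 0.88, edgeR adjusted p = 4.97e-13).

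Cell death genes were called higher for 17 and lower for 3 of 31 (54.8% and 9.68%, beside 13.5% and 12.1% of all genes tested). Their median log2 fold change was 0.498. Gsdmd, the pore-forming effector of pyroptosis, went from 1.54, 1.12 and 1.21 CPM to 22.2, 28.99 and 20.1 CPM (log2 fold change 4.21, edgeR adjusted p = 1.05e-22). Mlkl, the effector of necroptosis, went from 78.3, 77.9 and 78.8 CPM to 269, 270.3 and 257 CPM (log2 fold change 1.76, edgeR adjusted p = 8.104e-27), while Ripk3, the kinase that activates it, stood at 0.0454 ± 0.00519 and 0.1704 ± 0.0722 CPM (means ± SD, n = 3 each) and was not called. Casp4 and Casp12 had log2 fold changes of 3.77 and 4.53, Bak1 and Bid of 0.7995 and 1.14, and the death receptor Fas rose from 0.301 ± 0.228 to 1.18 ± 0.0592 CPM (log2 fold change 2.01). Without vehicle replicate 1 the values of Casp4 and Fas were 4.77 and 2.75. Bax and Mcl1 were called lower, by 0.23 and 0.16, and neither was called without IFNγ replicate 2 (-0.18 and -0.15), nor Mcl1 without vehicle replicate 2 (-0.13).

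Complement and coagulation genes rose for 9 of 22 and fell for 2 (40.9% and 9.09%, beside 13.5% and 12.1% of all genes tested). Their median log2 fold change was 0.66. C4b, the fourth component, went from 0.668, 0.688 and 0.9205 CPM to 38.95, 50.4 and 37.5 CPM (log2 fold change 5.78, edgeR adjusted p = 4.46e-27). C1ra and C2 rose by 2.79 and 2.22, and Serpinb9, an inhibitor of granzyme B, went from 6.78 ± 0.817 to 51.9 ± 2.599 CPM (means ± SD, n = 3 each). In the list of tryptophan, arginine and redox metabolism 4 of 26 genes rose and 5 fell, shares (15.4% and 19.2%) near those of all genes tested (13.5% and 12.1%). Ido1, Nos2 and Arg1, which IFNγ induces in macrophages and some tumors, had too few reads to be tested. Wars, the tryptophanyl-tRNA synthetase, went from 201, 199 and 205 CPM to 541, 569.9 and 529 CPM (log2 fold change 1.44, edgeR adjusted p = 5.598e-25). The ferritin genes Fth1 and Ftl1 and the transferrin receptor Tfrc were called lower, by 0.57, 0.41 and 0.36. The plot of gene lists against vehicle places these lists between the GBPs at one end and DNA replication at the other.

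**Figure D3:**
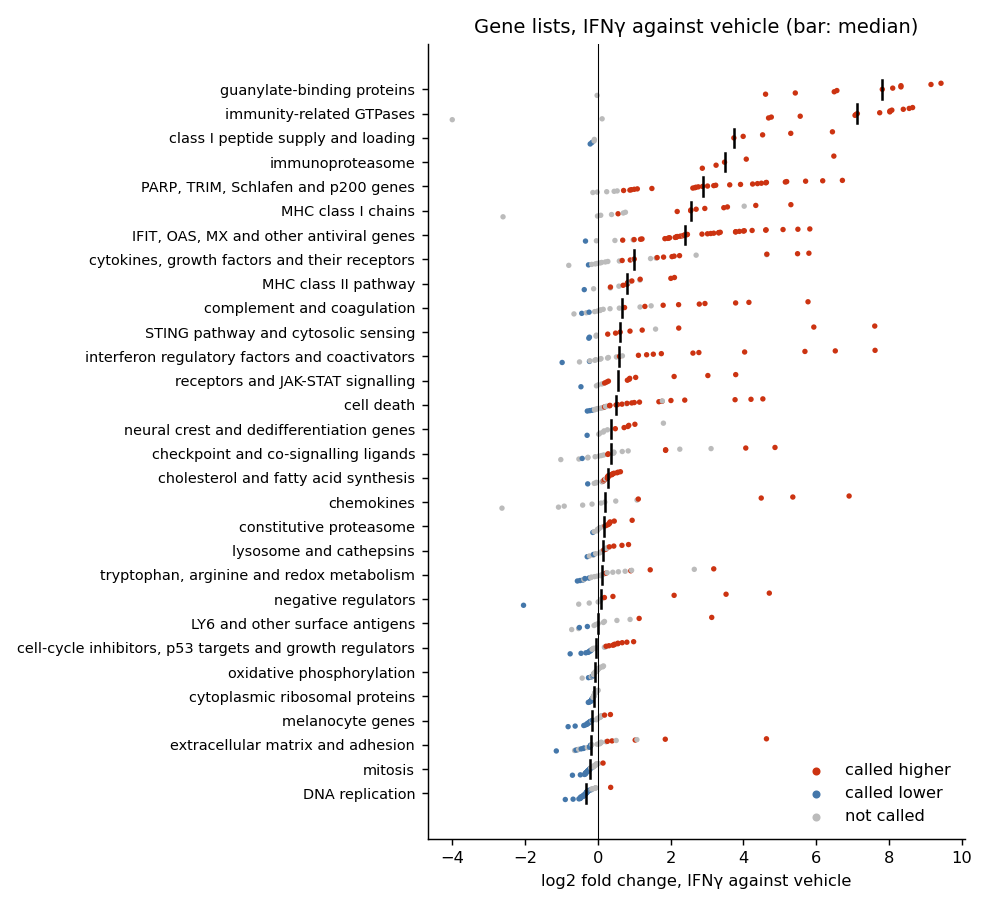
Log2 fold change of IFNγ against vehicle for the members of 30 gene lists, ordered by their medians (black bars), 1 point per gene tested, red where called higher, blue where called lower and gray where not called. The medians run from 7.82 for guanylate-binding proteins to -0.33 for DNA replication, beside 0.0057 over all genes tested.

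Among the melanocyte genes 11 of 22 were called lower and 2 higher (50% and 9.09%, beside 12.1% and 13.5% of all genes tested). Their median log2 fold change was -0.16, and none changed over 2-fold. Slc45a2, a transporter of the melanosome membrane needed for pigment, was among the genes that fell with the smallest p-values and went from 895, 919.9 and 945 CPM to 512, 538 and 513 CPM (log2 fold change -0.82, standard error 0.0477, edgeR adjusted p = 2.295e-17). Tyr, the tyrosinase that starts melanin synthesis, went from 718, 754 and 771 CPM to 471, 506 and 476 CPM (log2 fold change -0.63, edgeR adjusted p = 1.18e-13). For both, every IFNγ library lay below every vehicle library. Pmel, Dct and Tyrp1, other pigment proteins, fell by 0.31, 0.29 and 0.22 on the log2 scale. The members called higher were Tfap2a, a transcription factor of the lineage (log2 fold change 0.34, edgeR adjusted p = 3.36e-04), and Mc1r, the melanocortin receptor (0.18, edgeR adjusted p = 0.0128). The call of Mc1r was lost with upper-quartile factors (0.11) and without IFNγ replicate 2 (0.14) or vehicle replicate 1 (0.15). Mitf, the master factor of the lineage, stood at 297, 289 and 306 CPM and 304, 335 and 288 CPM and was not called (edgeR adjusted p = 0.502), nor were the factors Sox10 and Pax3, with log2 fold changes of 0.082 and 0.011. Mlana, another melanosome gene, was not called either (log2 fold change -0.041). In bulk samples fewer cells of a type and less RNA per cell cannot be told apart. In the list of neural crest and dedifferentiation genes, 5 of 12 rose and 1 fell (median log2 fold change 0.37). The shares are 41.7% higher and 8.33% lower, beside 13.5% and 12.1% of all genes tested. Axl, a receptor kinase, went from 23.5, 23.1 and 22.5 CPM to 44.5, 45.7 and 49.6 CPM (log2 fold change 1.02, edgeR adjusted p = 1.96e-13), and Ngfr, Sox9, Snai2 and Erbb3 were called higher at 0.82, 0.72, 0.85 and 0.48. The calls of Ngfr and Snai2 were lost without IFNγ replicate 1 (0.64 and 0.58), and that of Snai2 also without vehicle replicate 3 (0.72). The call of Sox9 was lost without IFNγ replicate 2, vehicle replicate 1 or vehicle replicate 2 (0.59, 0.59 and 0.71).

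Most cell-cycle genes fell, by small amounts. Of 38 DNA replication genes 31 were called lower and 1, Rfc3, higher (median log2 fold change -0.33, quartiles -0.42 to -0.24), and of 32 mitosis genes 20 were lower and 1, Top2a, higher (median -0.22, quartiles -0.31 to -0.12). Under upper-quartile factors these medians were -0.397 and -0.29. Ccne2, a cyclin of the entry into S phase, went from 45.4, 39.6 and 44.4 CPM to 23.4, 20.6 and 25.3 CPM (log2 fold change -0.898, edgeR adjusted p = 3.23e-10). Mcm2, a subunit of the replicative helicase, went from 565, 549 and 552 CPM to 415, 376 and 402 CPM (log2 fold change -0.48, edgeR adjusted p = 2.71e-10). Mki67, a marker of cycling cells, went from 256, 259 and 199.9 CPM to 135, 149 and 156 CPM (log2 fold change -0.701, edgeR adjusted p = 1.45e-08), with vehicle replicate 3 the lowest of its group and still above the IFNγ libraries. Among regulators, 10 of 25 rose and 9 fell. Myc went from 37.6, 33.7 and 30.8 CPM to 20.9, 16.8 and 22.2 CPM (log2 fold change -0.76, edgeR adjusted p = 7.82e-08), and Ccnd1, the cyclin that drives G1, fell by 0.46. The inhibitors Cdkn1b and Cdkn2c and the retinoblastoma genes Rb1 and Rbl1 rose by 0.46, 0.55, 0.67 and 0.41, whereas Cdkn1a, the p53 target p21, was just outside the threshold at a log2 fold change of -0.13 (edgeR adjusted p = 0.0512), and inside it under several alternatives, among them upper-quartile factors (adjusted p = 0.00164, edgeR) and DESeq2 (adjusted p = 0.0233).

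Genes of cholesterol and fatty acid synthesis rose slightly, with 17 of 25 higher and 1 lower (median log2 fold change 0.27, and 0.202 under upper-quartile factors). Idi1, an enzyme of isoprenoid synthesis, had a log2 fold change of 0.62 (edgeR adjusted p = 4.299e-08). Of 35 cytoplasmic ribosomal protein genes 0 rose and 14 fell (median -0.11), and of 29 oxidative phosphorylation genes 0 rose and 5 fell (median -0.071, 17.2% lower beside 12.1% of all genes tested). In the list of extracellular matrix and adhesion genes 5 of 30 rose, or 16.7% beside 13.5% of all genes tested, and 12 fell, or 40% beside 12.1%. Thbs1, thrombospondin 1, a matrix protein that restrains angiogenesis and binds CD47, stood out from its list, at 11.3, 10.7 and 10.8 CPM with vehicle and 285, 235 and 291 CPM with IFNγ (log2 fold change 4.63, standard error 0.111, edgeR adjusted p = 2.46e-30). Fn1 (fibronectin) rose by 1.02. Itga4, the integrin chain that binds VCAM1, went from 87.7, 94.1 and 94.1 CPM to 41.4, 45.5 and 38.002 CPM (log2 fold change -1.14, edgeR adjusted p = 8.91e-16), and Itga6 and Timp2 fell by 0.46 and 0.61. Lysosomal genes were called higher for 6 of 17, or 35.3% beside 13.5% of all genes tested. The 2 called lower, or 11.8%, were near the 12.1% of all genes tested. Of 13 LY6 and other surface antigens 2 were higher and 2 lower, 15.4% each way, near the 13.5% and 12.1% of all genes tested.

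The falls over 2-fold were mostly of genes with low counts. Of the 142 genes, 57 had under 1 CPM and 19 at least 10 CPM with vehicle. Abca12, a lipid transporter, went from 34.5, 37.1 and 39.04 CPM to 8.19, 7.73 and 9.31 CPM (log2 fold change -2.13, standard error 0.0923, edgeR adjusted p = 1.40e-21). Ss18l2 went from 224, 202 and 223 CPM to 84.3, 78.4 and 94.1 CPM (log2 fold change -1.34, edgeR adjusted p = 1.94e-20). Both were separated from vehicle in all libraries. Rab7b, a small GTPase of late endosomes, went from 7.39, 5.98 and 6.49 CPM to 1.21, 0.909 and 0.851 CPM (log2 fold change -2.71, edgeR adjusted p = 3.95e-14). Tmem179 fell by 1.53, Car6, a secreted carbonic anhydrase, by 0.87 and Dusp4, a phosphatase of ERK kinases, by 0.93 on the log2 scale. Among genes near 1 CPM, Cxcr3, the receptor of the CXCL9 to CXCL11 chemokines, went from 0.924, 1.72 and 1.67 CPM to 0.156, 0.101 and 0.0945 CPM (log2 fold change -3.54, edgeR adjusted p = 1.796e-07). Gjb1, a gap junction protein, Tmem119, Sema3d, a guidance factor, and Fam81a had log2 fold changes of -2.29, -2.25, -2.11 and -2.601. Col14a1, a collagen, had 0.668, 0.516 and 2.13 CPM with vehicle, where replicate 3 was the high one, and 0.273, 0.202 and 0.0945 CPM with IFNγ (log2 fold change -2.49, edgeR adjusted p = 4.92e-04). Its call was lost without vehicle replicate 3, at a log2 fold change of -1.57 (edgeR adjusted p = 0.0619). The transcripts Gm2115, Gm13889 and Mgam2-ps fell by 2.31, 2.13 and 2.26, and without IFNγ replicate 2 the value of Mgam2-ps was -2.98.

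IFNγ was then compared directly with IFNβ, a type I interferon, in the same line, with the same 3 IFNγ libraries as in the comparison with vehicle. The direct test called 1631 genes (8.78%) higher and 1311 (7.05%) lower with IFNγ than with IFNβ at these doses. Of the gene lists, GBPs and IRGs had the highest medians, with 10 of 11 and 13 of 15 genes higher with IFNγ and 0 lower (median log2 differences 3.92 and 2.96, beside -0.0077 over all genes tested). Gbp10 stood at 0.985 ± 0.375 CPM with IFNβ (SD, n = 3), against 262 ± 37.4 with IFNγ, a log2 difference of 8.05 (edgeR adjusted p = 1.05e-31). Gbp4 and Gm12185, at 5.16 ± 0.449 and 2.77 ± 0.263 CPM with IFNβ, differed by 6.97 and 6.68. Apol6 stood at 1.34 ± 0.251 CPM with IFNβ, against 275 ± 27.3 with IFNγ (log2 difference 7.67, edgeR adjusted p = 8.43e-33). Gbp8, at 0, 0.0417 and 0.0868 CPM with IFNβ, and Slamf8, with no read in any IFNβ library, were also higher with IFNγ. Irf1 had 39.03, 40.9 and 47.1 CPM with IFNβ and 684, 701 and 663 CPM with IFNγ (log2 difference 4.01, edgeR adjusted p = 1.04e-33). Ciita, Batf2, Cxcl9, Socs3 and Il12rb1 differed by 3.88, 4.32, 5.63, 3.02 and 3.73.

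The immunoproteasome (5 of 5 higher) and the class I peptide supply (5 of 9) were also higher with IFNγ and had no member lower, with median log2 differences of 1.58 and 0.85. Psmb9, Tap2 and Erap1 differed by 2.64, 2.77 and 1.497. Of 17 class I chains 4 were higher and 1 lower, and the others were not called (median 0.18). B2m did not differ past the threshold, at 2343 ± 96.3 CPM with IFNβ and 2416 ± 47.5 with IFNγ (log2 difference 0.044, standard error 0.0463, edgeR adjusted p = 0.629), H2-D1 was lower by 0.2702 and H2-T23 higher by 2.92. Cd274 stood at 35.2 ± 3.49 CPM with IFNβ and 106 ± 8.84 with IFNγ (log2 difference 1.59, edgeR adjusted p = 5.597e-19), and Cxcl10 at 633 ± 25.1 and 929 ± 78.4 (log2 difference 0.55). The antiviral genes tilted the other way, with 31 of 41 lower and 5 higher with IFNγ (median log2 difference -0.85). Mx2 had 101, 89.1 and 93.6 CPM with IFNβ and 20.7, 25.96 and 22.5 CPM with IFNγ (log2 difference -2.04, edgeR adjusted p = 1.38e-21). Usp18 and Lgals9, at 943 ± 23.05 and 663 ± 46.1 CPM with IFNβ, differed by -2.03 and -2.09. Apod, apolipoprotein D, and Plscr2, a scramblase, were raised more by IFNβ, with log2 differences of -2.66 and -2.27, as was the transcript Gm2619, at -2.45. Cholesterol and fatty acid synthesis genes were higher with IFNγ for 19 of 25 and lower for 0. The doses are in different units, so the comparison is of these 2 treatments and not of equal amounts.

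**Figure D4:**
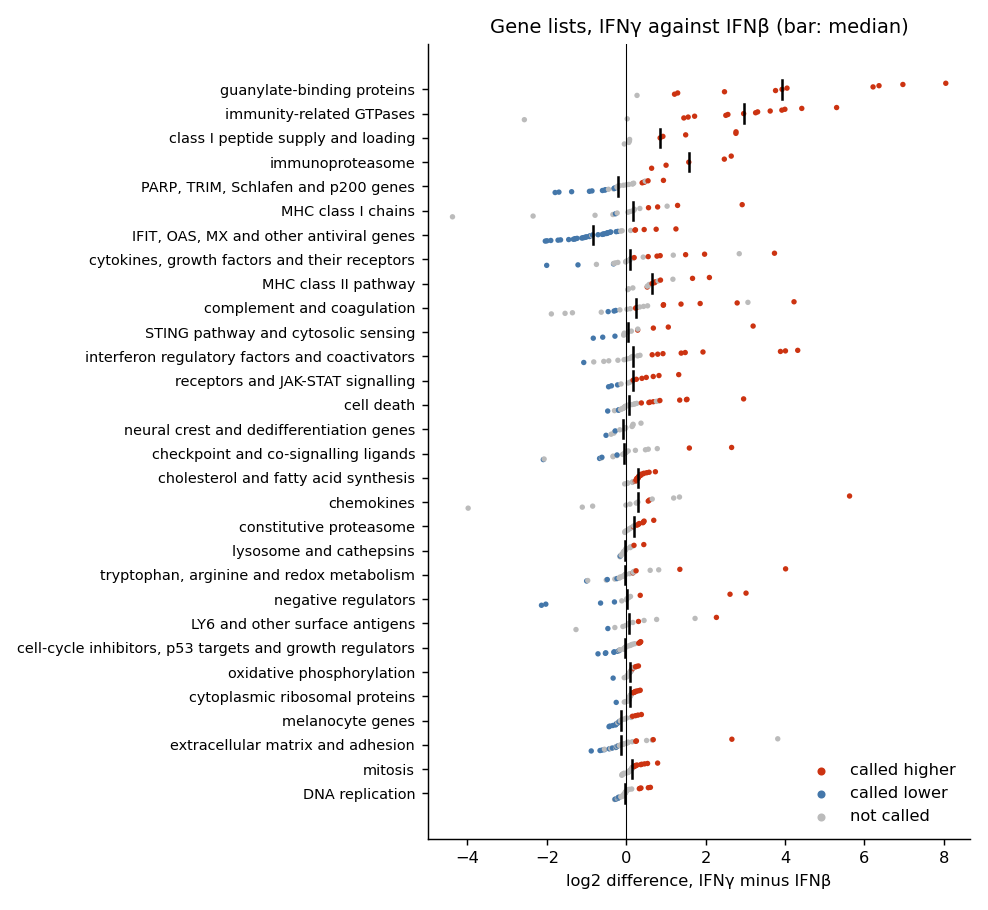
Log2 difference between IFNγ and IFNβ in B16F10 cells for the same 30 gene lists, in the order of the plot of lists against vehicle, 1 point per gene, red where called higher with IFNγ, blue where called lower and gray where not called, with a black bar at the median. The bar is at 3.92 for guanylate-binding proteins, 2.96 for immunity-related GTPases and -0.85 for the antiviral genes.

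The IFNγ effect in B16F10 cells was compared with that in 6694c2 cells by an interaction test over the 24 libraries, which uses the same B16F10 vehicle and IFNγ libraries as the comparisons above. Of 21138 genes tested, 1046 (4.95%) had a more positive and 955 (4.52%) a less positive effect in B16F10 cells. Without vehicle replicate 1 of the B16F10 cells 649 were more positive, and without IFNγ replicate 2 of these cells 685. The DNA replication and mitosis lists had no gene with a more positive effect in B16F10 cells and 17 of 38 and 17 of 32 with a less positive one (median log2 differences -0.299 and -0.301, beside 0.023 over all genes tested). Myc differed by -0.96 (edgeR adjusted p = 1.54e-07) and Mki67 by -0.82. The antiviral genes had a less positive effect in B16F10 cells for 23 of 41 and a more positive one for 6. Xaf1 went from 1.58 ± 0.528 to 143 ± 8.83 CPM in 6694c2 cells (means ± SD, n = 3 each), a difference between the effects of -4.04 (edgeR adjusted p = 1.09e-21). In B16F10 cells Xaf1 went from 29.4 to 160 CPM on average, scaled over the B16F10 libraries, so its vehicle level was already higher there. Ifi27 fell in B16F10 cells and went from 9.02 ± 2.02 to 55.8 ± 2.64 CPM in 6694c2 cells (difference -2.97, edgeR adjusted p = 1.09e-21). Irf9 and Tubb3, a neuronal tubulin, differed by -2.58 and -4.13. In the other direction, Ifi211 and Ifi204 differed by 2.75 and 2.72, Cd47 by 1.45 (edgeR adjusted p = 2.09e-16) and Prkg2, a cGMP-dependent kinase, by 2.33. Cd47 stood at 184 ± 9.8001 and 245 ± 2.22 CPM in 6694c2 cells. Among genes of the main lists, Irf1 differed by 1.003, Socs3 by 2.27, Thbs1 by 3.89 and Cd274 by -1.01, while Gbp2, Igtp, Ciita and Nlrc5 were not called in this test. Reads of 6694c2 genes in the B16F10 libraries were followed in 119 genes with at least 50 CPM in 6694c2 vehicle libraries. They were chosen to lie under 0.5% of that level in B16F10 vehicle libraries and to move little with IFNγ in 6694c2 cells. In the B16F10 vehicle libraries their median was 0.121% to 0.215% of the 6694c2 level, which this choice holds low. With IFNγ this median was 0.154%, 0.359% and 0.352% in replicates 1, 2 and 3. The choice put no limit on the IFNγ libraries, so these medians cannot show a difference between the groups. Of the genes called over 2-fold against vehicle, 92 of 675 higher and 17 of 142 lower were over 10 times higher in 6694c2 cells. A fit without all genes that high in 6694c2 cells kept 17293 of the 18584 genes, and called 587 higher and 125 lower over 2-fold. The part of these reads in the comparison with vehicle or of the lines was not tested.

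The vehicle libraries differed among themselves in the genes that IFNγ raised most, and the largest fold changes rest on these low values. For the 25 genes that rose over 64-fold to at least 30 CPM, the vehicle level was a median of 0.0979% of the IFNγ level in replicate 1, 0.6197% in replicate 2 and 0.417% in replicate 3. Replicate 1 was the lowest of the vehicle libraries for 24 of these genes. Without it the log2 fold change of Gbp10 was 7.85 in place of 8.33, that of Tgtp1 8.12 in place of 8.56 and that of Apol6 8.19 in place of 8.69, and all 3 stayed called. The source of the residual vehicle level was not tested.

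**Figure D5:**
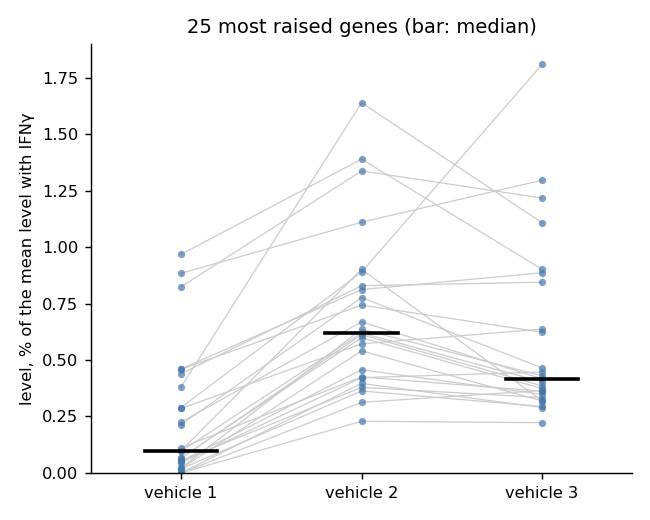
Level of the 25 genes raised over 64-fold to at least 30 CPM in each vehicle library, as a percentage of their mean level with IFNγ, 1 point per gene, gray lines joining the same gene and black bars at the median. The bars are at 0.0979%, 0.6197% and 0.417% for replicates 1, 2 and 3.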

How the data were processed

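Bulk RNA of B16F10 and 6694c2 cells, 3 libraries for each of 4 conditions, was sequenced from polyadenylated transcripts. The deposited values are raw read counts per gene, which the authors made by trimming with cutadapt, aligning with STAR and counting with Rsubread, with quality checks in FastQC and MultiQC. The submitters' processing notes list the mm10 build, while the gene annotation, strand setting and treatment of multi-mapped reads are not given in the sources used here. Reads of overlapping genes and of near-identical copies may therefore be assigned to either gene.

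Symbols were matched by gene identifier to the GENCODE annotation of GRCm38 for 49056 of 49315 genes. From these counts, genes with at least 10 reads over the 12 B16F10 libraries were kept (over all 24 libraries for the test between lines). TMM factors, glmQLFit and glmQLFTest of edgeR 4.0.16 (R 4.3.3) gave log2 fold changes, standard errors and Benjamini-Hochberg adjusted p-values from group means over the 12 libraries, with 8 residual degrees of freedom. The study's methods state DESeq2, which was run as an alternative (version 1.42.0). Standard errors were taken as the log2 fold change divided by the root of the F statistic. The CPM values quoted are TMM-scaled, and 3 libraries per group and 19688783 to 26399495 reads per vehicle or IFNγ library limit their precision. Intervals of shares cover counting error only.

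Named genes are members of the lists, the 12 with the smallest p and the 12 with the largest rise among genes higher over 2-fold, the 12 with the largest fall and the 6 with the smallest p among genes lower, the 6 in each direction most different from IFNβ and the 4 in each direction most different between lines, with a mean of at least 1 CPM and no overlap for the ranks by fold. A few members of the lists are counted but not reported here by name. Promoters came from RefSeq (GRCm38.p6). The members and lists were chosen with earlier results of these data known. Scripts were tested on simulated data. Alternatives were other normalizations, filters, tests and libraries, a replicate block and a set without genes high in 6694c2 cells. The study's 6 single-cell samples were left out, since they hold another tissue.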

Additional observations from a re-analysis of the deposited data

Results flagged for a closer look

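The effect of IFNγ differed between B16F10 and 6694c2 cells, by a test of the difference itself in edgeR, for 1046 genes with a more positive effect in B16F10 cells and 955 with a less positive one. Both lines had 3 libraries per condition, and the lines differ in tissue of origin, so line and tissue cannot be told apart. Of the genes with the smallest p-values that were also called in B16F10 cells, 4 had a more positive effect there. Ifi204, a DNA-binding p200 protein, had a log2 difference of 2.72 (standard error 0.156, edgeR adjusted p = 1.002e-16), from effects of 5.19 in B16F10 cells and 2.47 in 6694c2 cells. Its neighbour Ifi211 had a difference of 2.75, from 5.15 and 2.402. Cd47 had a difference of 1.45, from 1.86 and 0.41, and Prkg2 of 2.33, from 1.92 and -0.41.

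The other 4 had a less positive effect in B16F10 cells. Xaf1 had a log2 difference of -4.04 (standard error 0.16003, edgeR adjusted p = 1.09e-21), with effects of 2.44 in B16F10 cells and 6.48 in 6694c2 cells. Tubb3 had a difference of -4.13, from 0.86 and 4.99, and Irf9 of -2.58, from 0.87 and 3.45. Ifi27 moved in opposite directions, -0.34 in B16F10 cells and 2.63 in 6694c2 cells, a difference of -2.97.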

How the results depend on the processing

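The counts of genes called were recomputed with DESeq2, with RLE and upper-quartile factors, with other minimum counts, with a robust fit, without genes over 10 times higher in 6694c2 cells and with only the libraries compared. Under these alternatives every count stayed within 1.5 times its value. Against vehicle DESeq2 gave 2332 genes higher and 2296 lower, of which 567 and 115 over 2-fold, and upper-quartile factors gave 1965 and 3237. Leaving out 1 library at a time gave 2039 to 2256 genes higher and 1772 to 2020 lower, with 596 to 651 and 113 to 145 over 2-fold. Against IFNβ it gave 1300 to 1767 higher and 989 to 1404 lower. In the comparison of the lines it gave 649 to 1007 genes with a more positive and 804 to 1107 with a less positive effect in B16F10 cells. The first of these ranges is the one that moved over 1.5 times from its value of 1046, to 649 without vehicle replicate 1 and 685 without IFNγ replicate 2 of the B16F10 cells, and the cause was not tested. A group left with 2 libraries has less information by construction. The share of genes with an ISRE core in a promoter rose from 21.1% for genes higher over 2-fold to 31.25% for genes higher over 4-fold, a subset of them.

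Among the log2 fold changes of the genes named by rule or given values, 2793 values under alternatives stayed called or stayed not called, 48 lost the call and 13 gained it. The sign of values near 0 depends on the scaling, since upper-quartile factors moved the median over all genes tested from 0.00571 to -0.0597. The lost calls belonged to genes with small changes or few reads, among them the classical MHC class II chains, Cd79a, Icosl, Raet1e, Cd276, Sox9, Snai2, Irf3 and Col14a1. The replicate block, with the replicate numbers of the labels as a block, gave 2539 genes higher and 2297 lower than vehicle, 648 and 126 over 2-fold, 1680 and 1349 against IFNβ, and 1035 and 974 in the comparison of the lines. The deviations of same-numbered vehicle and IFNγ libraries correlated at 0.109, 0.118 and -0.0298, and those of differently numbered ones at -0.168 to 0.0843. With 3 libraries per group these values cannot decide whether the numbers pair the samples. Depth limits genes under about 1 CPM, whose fold changes rest on few reads.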
